A study of Mus musculus with 4 samples.

Results

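The genes described here are 8 transcription regulators that specify or mark inhibitory neurons of the midbrain: Gata2, Gata3, Tal1, Tal2, Sox14, Lhx1, Lhx5 and Zfpm2. They were chosen by symbol, and all 8 were found among the 31053 genes of the deposited count matrix. Their levels are given across the cell classes, the neuron subtypes and the ages of a single-nucleus RNA sequencing study of the mouse superior colliculus, a midbrain centre for visual and other sensory input. C57BL/6J mice, with no treatment or transgene named in the labels, were sampled before birth at embryonic day 19 (E19) and after it at P4, P8 and P21, where P gives the postnatal day, and tissue of several animals was pooled at each age into 1 library. The 4 libraries held 2249 to 2585 nuclei each, 9724 in all, with a median of 6828 to 11745 unique molecular identifiers (UMIs, each a counted RNA molecule) per nucleus. The deposited annotation named 9 classes and divided the 3459 inhibitory nuclei into 12 subtypes, IN1 to IN12, and the 4093 excitatory nuclei into 13, EN1 to EN13. All 3 inhibitory neuron markers (Gad1, Gad2 and Slc32a1) and both excitatory ones (Slc17a6 and Slc17a7) were highest in the class of that name. This held for 2 of 4 astrocyte markers, 3 of 6 oligodendrocyte-lineage markers and none of the 4 epithelial markers. Slc1a3 peaked in vascular leptomeningeal cells, Gja1 in epithelial nuclei, and Pdgfra, Olig1 and Olig2 in dividing nuclei. Of all barcodes, 9 occurred in 2 or more libraries. Because an age is 1 library and the classes were named from the same nuclei, no test was made. Every difference below is a description, and its 95% interval covers counting error only.

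Inhibitory neurons of the midbrain release gamma-aminobutyric acid (GABA). As their precursors leave the cell cycle, the zinc-finger factor Gata2 and the basic helix-loop-helix factors Tal1 and Tal2 act as selectors that install the GABAergic identity at the expense of the glutamatergic one; Gata3, a close relative of Gata2, follows in the young neurons. Zfpm2, also called Fog2, is a cofactor that binds GATA proteins, Sox14 is a high-mobility-group repressor found in GABAergic neurons of the midbrain and diencephalon, and Lhx1 and Lhx5 are LIM-homeodomain factors of many inhibitory lineages. Outside the brain Tal1, Gata2 and Gata3 are better known from blood formation, where TAL and GATA factors sit on DNA in one complex with LIM-only and LIM-binding proteins.

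The genes lie on different chromosomes, apart from Tal1 and Tal2, which share chromosome 4 (GENCODE M21, GRCm38, 1-based). Gata3 (chromosome 2, 9857078 to 9890034, minus strand) is overlapped on the other strand by the antisense gene Gm13256 (9877256 to 9878869) and by 4930412O13Rik, which held 30 UMIs. On its own strand it is overlapped by 9230102O04Rik, which held none. Lhx1 (chromosome 11, 84518284 to 84525535, minus strand) is followed after 124 bases by the start of the divergent long non-coding gene Lhx1os. Lhx5 (chromosome 5, 120431699 to 120441223, plus strand) overlaps the start of Gm27199 on the other strand. Sox14 (chromosome 9, 99874106 to 99876170) is the shortest of the 8 genes at 2.06 kb, and Zfpm2 (chromosome 15, 40655035 to 41104592) the longest at 450 kb. Gata2 lies at 88193891 to 88207032 on chromosome 6, Tal1 at 115056426 to 115071755 and Tal2 at 53779705 to 53788712 on chromosome 4.

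The bases just upstream of 4 start sites are shown, for Lhx1 and Gata3 because an exon of a neighbouring RNA described below covers part or all of them, and for Tal1 and Sox14 because they hold core letters of motifs that GATA and TAL factors recognise. They are RefSeq promoter entries on GRCm38.p6, written 5′ to 3′ on the strand of the gene; the RefSeq start of Gata3 lies inside the longer GENCODE gene. In the first pair capitals mark bases that also lie in an exon of the neighbour on the other strand, Lhx1os for Lhx1 (chr11:84525536-84525784, minus strand) and Gm13256 for Gata3 (chr2:9878601-9878850, minus strand).
Lhx1: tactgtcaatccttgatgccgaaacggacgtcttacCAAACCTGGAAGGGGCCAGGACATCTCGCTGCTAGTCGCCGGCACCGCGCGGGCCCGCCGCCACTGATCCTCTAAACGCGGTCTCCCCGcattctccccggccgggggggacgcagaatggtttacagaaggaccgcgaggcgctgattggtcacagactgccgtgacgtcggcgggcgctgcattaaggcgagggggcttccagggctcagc
Gata3: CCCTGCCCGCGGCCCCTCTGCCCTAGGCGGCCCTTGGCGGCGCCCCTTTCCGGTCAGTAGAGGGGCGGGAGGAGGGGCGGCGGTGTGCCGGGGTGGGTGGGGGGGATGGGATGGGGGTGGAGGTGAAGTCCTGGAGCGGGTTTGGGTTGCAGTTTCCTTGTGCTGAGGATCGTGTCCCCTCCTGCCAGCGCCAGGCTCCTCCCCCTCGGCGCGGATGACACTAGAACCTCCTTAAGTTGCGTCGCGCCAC
In the second pair capitals mark the core letters of the GATA and E-box motifs, for Tal1 (chr4:115056176-115056425, plus strand) and Sox14 (chr9:99876171-99876420, minus strand).
Tal1: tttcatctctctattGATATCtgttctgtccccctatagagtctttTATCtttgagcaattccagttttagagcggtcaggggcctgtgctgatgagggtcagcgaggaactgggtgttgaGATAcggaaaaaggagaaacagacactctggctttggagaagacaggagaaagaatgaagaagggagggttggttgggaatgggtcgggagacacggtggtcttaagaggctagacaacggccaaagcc
Sox14: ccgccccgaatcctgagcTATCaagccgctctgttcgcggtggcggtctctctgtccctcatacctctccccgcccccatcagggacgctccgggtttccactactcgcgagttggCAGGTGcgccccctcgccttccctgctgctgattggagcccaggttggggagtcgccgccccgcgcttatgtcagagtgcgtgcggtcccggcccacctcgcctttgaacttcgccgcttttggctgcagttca
All 250 bases before the Gata3 start lay in the Gm13256 exon, and 89 of the 249 Lhx1 bases in that of Lhx1os. Motifs were searched on both strands in the 250 bases before each listed start of Gata2, Gata3, Tal1, Tal2, Sox14 and Lhx1. A first search found no match of a GATA box (GATAAG), which 6.55% of 32851 RefSeq promoters of the same length hold. Nor did it find the E-boxes CAGCTG or, as the other form, CAGATG (25.5% of promoters hold either). The homeodomain motif TAATTA (4.84%) and the SOX motif, written ACAAT (27.7%), had no match either. The shorter cores were searched after that. GATA, held by 53.6% of promoters, had 4 matches before the first Tal1 start, which counts a palindromic GATATC on both strands, and 1 before Sox14. CANNTG, held by 66.2%, had 1 match each before Sox14 and Tal2, and an E-box followed by GATA after 7 to 9 bases, held by 1.42%, had none. These are matches of letters and say nothing about binding.

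The inhibitory neurons held RNA of all 8 genes, lower at P21 than at E19 for all but Tal2. Scaled to UMIs per 1000000 UMIs of the class (CPM), Zfpm2 measured 1836 CPM at E19 and 1349, 1702 and 1396 at P4, P8 and P21. Gata3 read 150, 128, 121 and 80.2 CPM in the same order. Gata3 was thus highest in the E19 library and lowest in the P21 library, while Zfpm2 dipped at P4. Tal1 ran from 54.7 CPM at E19 through 50.6 at P4 and 47.9 at P8 to 37.3 at P21. Sox14 gave 50.7, 35.9, 52.2 and 25.9 CPM, with E19 and P8 high and P4 and P21 low. Lhx1 gave 50.5, 29.1, 24.4 and 23.6 CPM, and Lhx5 gave 51.5, 44.2, 41.8 and 29.0 CPM. The Lhx1 level was thus lower from P4 on, with no later step beyond its counting interval, whereas Lhx5, like Tal1, was lower mainly at P21. The early selectors Gata2 and Tal2 were scarce. Gata2 lay between 4.42 and 7.55 CPM, and Tal2 between 0.168 and 0.812 CPM on 19 UMIs in 3459 nuclei.

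Per kilobase of gene the order was different from that in CPM. The mean inhibitory CPM per kb was 19.9 for Sox14, 4.40 for Lhx1, 4.37 for Lhx5, 3.63 for Gata3, 3.49 for Zfpm2 and 3.11 for Tal1. So Sox14 led per kb, and Zfpm2, the first in CPM, was the fifth per kb of the whole gene. Gata2 followed with 0.422 and Tal2 with 0.0531 CPM per kb. The gene lengths, 2.065 kb for Sox14 and 450 kb for Zfpm2, weigh heavily in this order. The chemistry counts 3′ ends and the counting of intronic reads is not given. The order per kb therefore does not show which gene had more RNA.

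**Figure D1:**
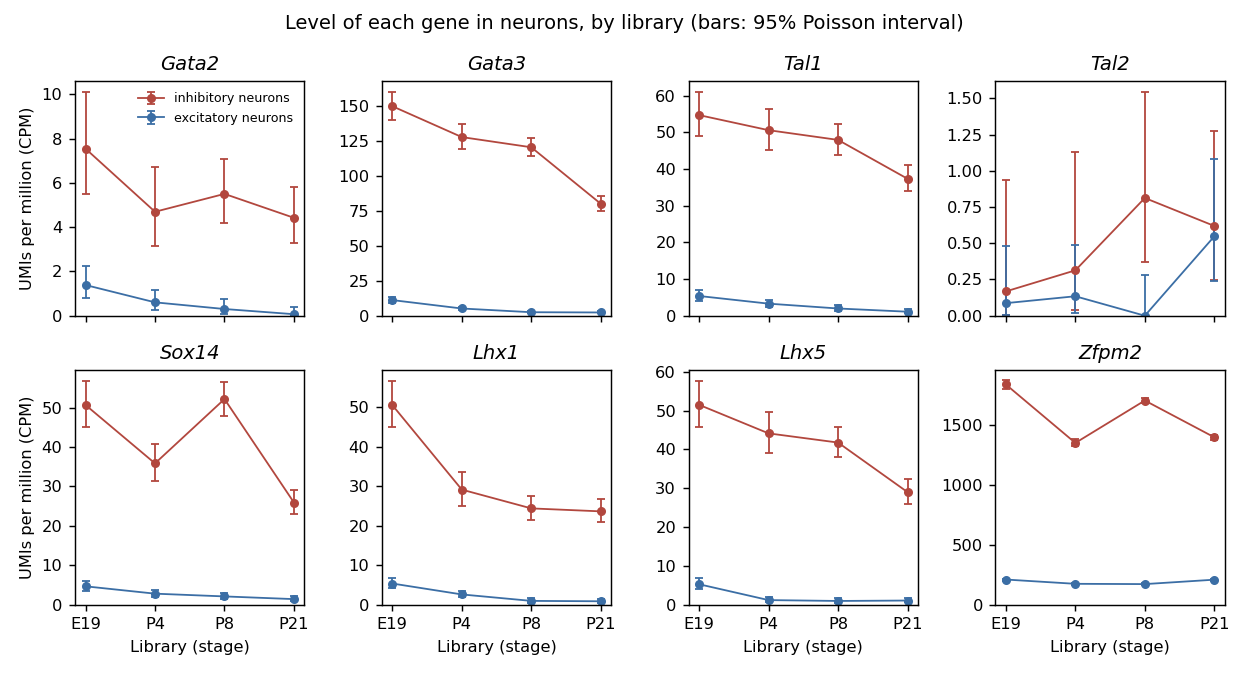
Level in CPM (y axis, linear, from 0, its scale set for each gene) of the 8 genes in inhibitory and excitatory neurons of the 4 libraries (x axis); bars are 95% Poisson intervals. Inhibitory neurons sit above excitatory neurons in every library for 7 genes, while the Tal2 intervals overlap in all libraries but P8.

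Excitatory neurons held little RNA of these genes. Gata3 measured 11.2 CPM there (E19), 5.17 (P4), 2.50 (P8) and 2.33 (P21), so the inhibitory level was 13.4-fold higher in the E19 library (95% interval 11.1 to 16.3), 24.7-fold at P4 (19.6 to 31.7), 48.2-fold at P8 (34.1 to 70.3) and 34.4-fold at P21 (24.5 to 50.03). Tal1 was 10.2-fold (7.73 to 13.6) higher in inhibitory neurons at E19 and 34.1-fold (20.7 to 60.2) at P21. For both genes the gap was wider in the P21 library than at E19, beside a lower excitatory level, and Gata3 in astrocytes likewise stood at 21.6 CPM at E19 and 3.08 at P21. Sox14 was 10.8- to 24.6-fold higher, Lhx1 9.39- to 26.5-fold and Lhx5 9.74- to 42.4-fold. Zfpm2 had the narrowest gap of the well-counted genes, 6.67- to 9.87-fold, with 172 to 210 CPM in excitatory neurons. Gata2 was 5.44-fold higher at E19 (3.02 to 10.3), on 45 inhibitory and 16 excitatory UMIs, and 64.6-fold at P21 (11.1 to 2602), on 50 UMIs and 1. Tal2 could not be placed on either side: its intervals at E19, P4 and P21 held 1, and at P8 there were 9 inhibitory UMIs and none in excitatory neurons.

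Of the 8 genes 6, all but Gata2 and Tal2, reached 10 CPM in a neuron class, and all 6 were at least 2-fold higher in inhibitory neurons in each library, with 5 CPM added to both sides. Of all 10387 genes that reached 10 CPM, 46 (0.443%) met that rule. The classes were named from the same nuclei, so the count of 6 is a description and supports nothing. Other genes of the 46 were 8 from the companion lists given below and 4 non-coding neighbours of members, namely Gm47757, Lhx1os, Gm13256 and Gm27199. The remaining 28 belonged to none of these groups.

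The share of nuclei with at least 1 UMI has to be read with depth, which was lower at E19 (median 6075 UMIs per inhibitory nucleus) than at P21 (14010). Gata3 was seen in 48.8% of inhibitory nuclei at E19 (45.5 to 52.2, exact Clopper-Pearson interval) and in 59.7% at P21 (56.1 to 63.3). With each nucleus thinned to 2000 UMIs, which left none out, the share was 24.1% at E19 and 19.0%, 20.4% and 14.7% at P4, P8 and P21, so it ran opposite to the unthinned share. Oligodendrocyte-lineage nuclei, which should lack Gata3, held a UMI in 6.38% (3 of 47, median 4197 UMIs) at E19 and 1.63% (5 of 306, median 7253) at P21; thinned, they lay between 0% and 4.26% over the libraries, and excitatory nuclei between 0.346% and 1.72%. The excitatory share of Gata3 thus lay within the range of the oligodendrocyte lineage, which itself rests on few nuclei with a UMI. How much of it is background was not tested. Thinned inhibitory shares were 6.76 to 10.5% for Tal1, 6.08 to 10.6% for Sox14, 4.60 to 8.18% for Lhx1, 6.76 to 10.1% for Lhx5 and 0.946 to 1.79% for Gata2. Those of Zfpm2 were 72.1 to 82.4% in inhibitory and 22.3 to 24.5% in excitatory nuclei, beside 21.7 to 28.6% in microglia, so the excitatory share lay at the microglial level and is read no further. Thinned, the inhibitory share of Zfpm2 was higher at P21 than at E19 and its CPM lower, so no order is read from it. Lhx1, Lhx5 and Gata2 had no UMI in the thinned oligodendrocyte lineage at E19, and 0 of 47 nuclei allows a share of up to 7.55% (exact Clopper-Pearson limit). In later libraries Lhx1 reached 1.85% there (P4) and Lhx5 0.699% (P8). The shares of that lineage lay between 0% and 2.13% for Tal1 and between 0.327% and 3.70% for Sox14.

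Most inhibitory nuclei showed at least 1 of these factors. Counting Gata2, Gata3, Tal1, Sox14, Lhx1 and Lhx5, at least 1 was seen in 82.2% (E19), 82.0% (P4), 88.1% (P8) and 89.6% (P21) of inhibitory nuclei, and at least 2 in 46.6 to 61.5%. In excitatory nuclei at least 1 was seen in 21.2%, 15.2%, 11.9% and 7.48% in the same order. Thinned to 2000 UMIs, the shares with at least 1 were 33.7 to 48.2% and 1.32 to 6.20%. Pooled over libraries, 15.6% (11.1 to 20.96) of the 225 excitatory nuclei with Gata3 also had 2 or more UMIs of the GABA-synthesis and transport genes Gad1, Gad2 and Slc32a1, against 8.71% of the 3868 without it, at median depths of 10903 and 11633 UMIs. In single libraries the interval of the Gata3 share held the share without it at E19 (10.7% against 6.88%), P8 (12.5% against 9.82%) and P21 (18.2% against 11.1%), but not at P4 (23.5% against 8.52%). The pooled shares were 20.1% and 8.70% for Tal1 and 23.5% and 8.80% for Lhx5, but 9.40% and 8.69% for Zfpm2. The part of mixed droplets or of neurons with both kinds of RNA in these counts was not tested.

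Between E19 and P21 all 6 genes above the minimum were lower in the inhibitory neurons, and none was lower by 2-fold on the scale of log2(CPM + 5). The changes were −0.96 for Lhx1, −0.86 for Gata3, −0.85 for Sox14, −0.73 for Lhx5, −0.50 for Tal1 and −0.39 for Zfpm2. Among the 9951 genes with 10 CPM in either library, 54.2% were lower by any amount and 11.1% by 2-fold or more; the median change was −0.79 for the 6 genes and −0.07 for all. As plain ratios, P21 stood at 0.468 of E19 for Lhx1 (0.395 to 0.554), 0.512 for Sox14 (0.434 to 0.603), 0.535 for Gata3 (0.487 to 0.587) and 0.564 for Lhx5 (0.481 to 0.661). Tal1 kept 0.683 (0.590 to 0.791), Zfpm2 0.760 (0.742 to 0.779) and Gata2 0.586 (0.384 to 0.897). Tal2, with 1 UMI at E19 and 7 at P21, allowed no direction. In excitatory neurons the low levels were lower still at P21, with ratios of 0.208 for Gata3 (0.138 to 0.306), 0.204 for Tal1 (0.110 to 0.357) and 0.166 for Lhx1 (0.0835 to 0.304), while Zfpm2 stood at 0.994 (0.942 to 1.05). Gata3 was lower by a like ratio in classes that should lack it, 0.142 (0.0418 to 0.391) in astrocytes and 0.139 (0.0271 to 0.896) in the oligodendrocyte lineage, on 20 UMIs or fewer per library. Zfpm2 in inhibitory neurons rested on the choice of the E19 library, since against P4 it was higher at P21 by 0.05 on the log2 scale. The other changes against P4 were −0.25 for Lhx1, −0.40 for Sox14, −0.64 for Gata3, −0.53 for Lhx5 and −0.39 for Tal1. Scaling by the median of ratios moved the median change of all genes to 0.04 and that of the 6 genes to −0.69. With a single library per age, age and library cannot be told apart.

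Within the 12 inhibitory subtypes the direction was nearly the same. Lhx5 was lower at P21 than at E19 in 12 of 12 subtypes, in 7 of them beyond the counting interval. Gata3, Tal1, Sox14 and Lhx1 were each lower in 11 of 12, beyond the interval in 6, 4, 7 and 4 subtypes, and none was higher beyond it in any. Gata2 was lower in 8 of 12, in 1 beyond the interval. All subtypes come from the same E19 and P21 libraries, so these counts repeat a single comparison of libraries. They were not made for all genes, and in the whole class 54.2% of the 9951 genes were lower at P21. The makeup of the class did shift, since IN1 supplied 266 inhibitory nuclei at E19 and 70 at P21 and IN3 supplied 67 and 126.

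Each gene had its own order of subtypes, although all 12 inhibitory subtypes lay above all 13 excitatory ones in mean CPM for Gata3, Tal1, Sox14, Lhx1 and Lhx5. For Gata2 and Zfpm2 this held for 11 of 12. Levels per subtype are means of the libraries with at least 10 nuclei, with their SD. In the order of subtypes, each of the 11 neighbouring inhibitory pairs had overlapping library ranges for every gene except 1 pair of Zfpm2. These ranges run over the ages, so an overlap does not show that neighbours were alike within a library. Zfpm2, for instance, read 4751 CPM in IN12 and 3371 in IN9 at E19, and 3431 and 1899 at P21.

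**Figure D2:**
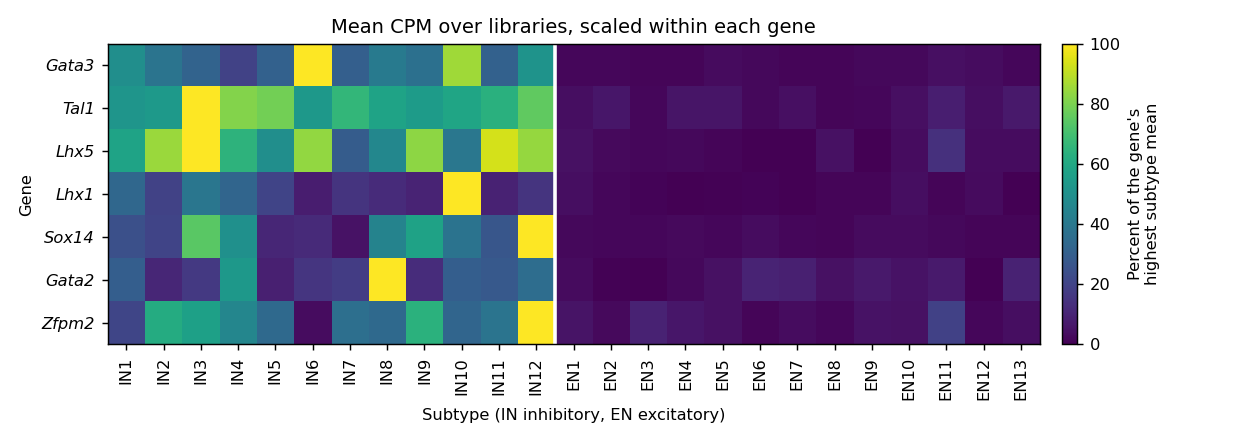
Mean CPM over libraries of 7 genes (rows) in the 25 neuron subtypes (columns), each row scaled to its own highest subtype (colour, percent); Tal2 is left out for its 35 UMIs. The brightest subtype is IN6 for Gata3, IN10 for Lhx1, IN8 for Gata2, IN3 for Tal1 and Lhx5 and IN12 for Sox14 and Zfpm2; IN6 is the darkest of the inhibitory block for Zfpm2 and Lhx1.

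Gata3 was highest in IN6, with 275 ± 93.2 CPM (SD, n = 4 libraries), and IN10, with 236 ± 49.5, and lowest in IN4, with 53.8 ± 9.08. In IN6 it measured 318 CPM (E19), 373 (P4), 251 (P8) and 157 (P21), and in IN4 63.3, 59.9, 45.4 and 46.7 in that order. The ranges of IN6 and IN4 did not overlap. Tal1, by contrast, was nearly flat: from IN3 (75.6 ± 22.1 CPM) to IN1 (39.3 ± 5.17) it spanned 1.92-fold, against 5.11-fold for Gata3. Its values in IN3 were 96.0 CPM at E19 and 91.5, 65.7 and 49.2 at P4, P8 and P21, above the 35.4 to 46.9 CPM of IN1 in each library. IN3 stayed the highest in 6 of 6 alternatives, whereas the lowest subtype was another than IN1 in each of them. Lhx5 spanned 3.43-fold, from 60.0 ± 14.6 CPM in IN3 and 56.0 ± 29.0 in IN11 to 17.5 ± 6.71 in IN7, and the subtype in first place changed with the setting. In every setting tried IN7 was the lowest for Lhx5.

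Lhx1 and Sox14 were more restricted. Lhx1 was highest in IN10, at 110 ± 72.1 CPM, with 212 CPM (E19), 41.8 (P4), 95.01 (P8) and 90.6 (P21); the P4 value rests on 8 UMIs in 25 nuclei. IN3 came next at 43.0 ± 12.1, and IN6 was lowest at 8.80 ± 1.25 CPM, a span of 12.5-fold; IN11 was the lowest in place of IN6 in 4 of 6 alternatives. IN6 and IN10 thus shared the highest Gata3 levels and differed in Lhx1, 8.80 against 110 CPM. Sox14 spanned 20.9-fold, from 134 ± 48.6 CPM in IN12 and 99.8 ± 42.3 in IN3 to 6.40 ± 7.28 in IN7; without the E19 library the span was 33.9-fold. In IN12 it read 196 CPM at E19 and 99.2, 148 and 91.6 at P4, P8 and P21, and in IN7 15.6, 0, 8.82 and 1.17, the 0 being no UMI in 35 nuclei. In IN9 its libraries were far apart, with 156 CPM (E19), 24.3 (P4), 90.6 (P8) and 37.7 (P21).

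Gata2 was sparse. IN8 held 19.9 ± 14.3 CPM and IN4 10.6 ± 7.33, on 49 and 25 of the gene's 250 UMIs; IN1 held 46 UMIs at a mean of 5.96 CPM. In IN8 it read 21.8 CPM at E19 and 7.93, 39.5 and 10.6 at P4, P8 and P21. The means of the other inhibitory subtypes lay between 1.79 and 7.09 CPM, and the libraries of IN12, IN10 and IN11, with 6 UMIs or fewer each, and of IN7 (up to 8.41 CPM) and IN9 (up to 8.09) reached into the range of IN8. Its span of 11.2-fold was 34.3-fold without the P4 library. Gata2 and Gata3 did not share their leading subtypes: IN4 was second for Gata2 and last for Gata3.

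Zfpm2 spanned 30.4-fold, from 3848 ± 645 CPM in IN12 to 126 ± 54.9 in IN6. In IN12 it read 4751 CPM (E19), 3339 (P4), 3872 (P8) and 3431 (P21). In IN6 it read 79.6, 99.6, 122 and 205 CPM in the same order, lower in every library than in any other inhibitory subtype, the next being IN1 with 572 to 1309. The IN6 level did not exceed that of microglia (177 CPM at E19, 216 at P21) or of the excitatory class (210 and 209). A UMI of Zfpm2 was seen in 33.3% of 54 IN6 nuclei at E19 (21.1 to 47.5) and 58.8% of 51 at P21 (44.2 to 72.4), against 91.9% and 96.8% of the nuclei of the other inhibitory subtypes, at median depths of 5285 and 11369 UMIs in IN6 and 6137 and 14286 in the others. IN6 was otherwise marked as inhibitory: Gad1 stood at 198 CPM, Gad2 at 313 and Slc32a1 at 89.8, with Slc17a6 at 27.5. Otx2, a homeodomain factor of the midbrain, was at 11.1 CPM there, below its 47.1 CPM in IN1 and 283 CPM in IN12. IN2 was also low in Otx2, at 18.5 CPM, yet held 2374 CPM of Zfpm2. The excitatory subtype EN11 held the highest Zfpm2 among excitatory neurons, 741 ± 247 CPM (n = 3 libraries with at least 10 nuclei), with 502 CPM at E19, 725 at P4 and 996 at P8. EN11 had 255 CPM of Slc17a6, 16.8 of Gad1 and 36.2 of Gad2. Its Otx2, at 48.3 CPM, was the highest among excitatory subtypes, the next being EN10 with 13.7. EN11 was also the highest excitatory subtype for Gata3 (11.3 CPM), Tal1 (6.48) and Lhx5 (8.25).

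**Figure D3:**
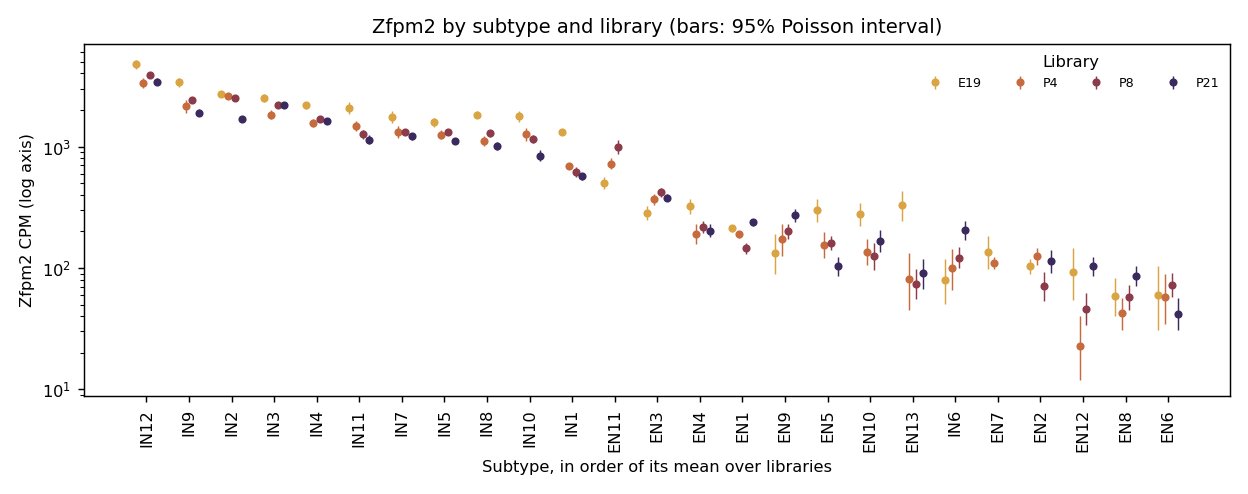
Zfpm2 CPM (y axis, log scale) in each neuron subtype (x axis, ordered by the mean over libraries), 1 point per library with at least 10 nuclei and its 95% Poisson interval. IN6 stands among the excitatory subtypes at 79.6 to 205 CPM and is highest at P21, and EN11 is the highest excitatory subtype.

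With age Zfpm2 went opposite ways in IN6 and the others. P21 was 0.437 (0.405 to 0.471) of E19 in IN1, 0.471 (0.407 to 0.546) in IN10 and 0.722 (0.648 to 0.806) in IN12, and it lay below 1 beyond the interval in 11 of 12 inhibitory subtypes. In IN6 it was 2.57 (1.65 to 4.16), on 24 and 129 UMIs. Of 11 excitatory subtypes with at least 10 nuclei in both libraries, 3 were higher beyond the interval (EN1, EN3 and EN9) and 4 lower (EN4, EN5, EN10 and EN13).

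Of 18 listed partners of GATA, TAL and LIM factors, 10 reached 10 CPM, of which 1 lay on the inhibitory side and 9 on neither. Lmo1, a LIM-only protein, was the one at least 2-fold higher in inhibitory neurons in all libraries, with 145 CPM at E19 and 111, 159 and 52.0 at P4, P8 and P21 against 25.7, 17.3, 11.52 and 5.61 in excitatory neurons. Lmo2, the LIM-only member of the blood complex, read 6.99 to 10.0 CPM in inhibitory and 2.26 to 5.12 in excitatory neurons. Lmo3 leaned to excitatory neurons, with 35.3 to 123 CPM against 138 to 337. Lmo4 read 53.9 to 70.0 CPM in inhibitory and 35.8 to 42.3 in excitatory neurons, the corepressor Cbfa2t3 33.2 to 65.6 against 12.1 to 44.4, and the adaptor Ldb2 232 to 309 against 362 to 544. The adaptor Ldb1 and the E proteins Tcf3, Tcf4 and Tcf12, with which TAL factors pair, lay within 2-fold between the classes. Zfpm1, the relative of Zfpm2, and Gata1, Gata4, Gata5, Gata6, Lyl1, Nhlh1 and Nhlh2 stayed below 10 CPM in both classes.

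Of 19 other midbrain inhibitory factors, 11 reached 10 CPM and 4 lay on the inhibitory side in all libraries. They were Pax7 (55.7 to 126 CPM against 1.23 to 3.64), Pax3 (19.6 to 51.8 against 1.82 to 2.47), Otx2 (95.6 to 179 against 4.25 to 11.97) and Dmbx1 (11.4 to 21.9 against 0.479 to 1.65). Six3 was on that side at E19, with 50.8 against 5.55 CPM, and at P4, with 15.3 against 3.09. At P8 and P21 it was at or below 1.06 CPM in inhibitory neurons. Of the transmitter genes, Gad1, Gad2 and Slc32a1 lay on the inhibitory side, Abat lay on neither, and Slc6a5 did not reach 10 CPM. The forebrain inhibitory factors Dlx1, Dlx2, Dlx5, Dlx6, Isl1, Lhx6, Lhx8 and Nkx2-1 did not reach 10 CPM in either class. Of 9 progenitor factors only Sox2 and Hes5 did, on neither side. On the other side, 8 of 13 excitatory factors and the transmitter gene counted with them, Pou4f1, Ebf1, Ebf2, Ebf3, Lhx2, Lhx9, Tfap2d and Slc17a6, were at least 2-fold higher in excitatory neurons in all libraries, a rule that 43 of all 10387 genes (0.414%) met; Ebf2, for instance, stood at 117 to 334 CPM against 1.59 to 11.1.

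For 4 of 7 members the most similar gene across the 25 subtypes was a genomic neighbour, overlapping it or within 50 kb, as it was for 2.23% of the 11435 genes compared that had a position. Likeness was Pearson's r of log2(CPM + 5), a description over points that share libraries, among genes reaching 10 CPM in a subtype. Gm13256 was closest to Gata3 (r = 0.99), Lhx1os to Lhx1 (0.96) and Gm27199 to Lhx5 (0.97). Gm47757, which lies 15.8 kb from Sox14, was closest to Sox14 (0.98), and Gm16294, 128 kb from Zfpm2, to Zfpm2 (0.90). The promoter sequences of Gata3 and Lhx1 printed above show how close the first pairs lie. Lhx1os read 66.9 CPM (E19), 55.1 (P4), 45.0 (P8) and 38.8 (P21) in inhibitory neurons and peaked with Lhx1 in IN10 (126 CPM). Gm13256 read 53.7, 47.7, 37.1 and 13.2 CPM in that order. No source used here says if reads were assigned by strand, so UMIs of overlapping genes, Gata3 with Gm13256 and Lhx5 with Gm27199, may be shared; Lhx1 and Lhx1os do not overlap. Over the 12 inhibitory subtypes alone, Gm13256 (0.95), Gm47757 (0.97) and Lhx1os (0.93) were still first for their genes, and Gm27199 and Gm16294 were not. The other look-alikes over 25 subtypes were Gad1 (0.98), Slc32a1 (0.98) and Gad2 (0.98) for Tal1, Slc32a1 (0.96) and Gad2 (0.96) for Gata3, Gad2 (0.96) and Gad1 (0.96) for Lhx5, Asic4 (0.92) and Ift20 (0.91) for Sox14, Slc30a3 (0.90) and Gad1os (0.88) for Lhx1, and Otx2 (0.88) and Asic4 (0.86) for Zfpm2. Gata2 was closest to Sox14 (0.76), Gm47757 (0.76) and Slc30a3 (0.76).

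Among themselves the members other than Tal2 were alike across all neurons and less so within the inhibitory block. Over 25 subtypes r was 0.94 for Gata3 and Tal1, 0.96 for Tal1 and Lhx5 and 0.75 for Gata3 and Zfpm2; over the 12 inhibitory subtypes the same pairs gave −0.53, 0.15 and −0.58. The highest inhibitory value among pairs without Tal2 was 0.54, for Sox14 and Zfpm2. Pairs with Tal2, a gene with few UMIs, gave 0.19 (Lhx5) to 0.54 (Gata2) over 25 subtypes, and Gata2 with Tal2 gave 0.71 over the 12.

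Pairs of members were also compared in single inhibitory nuclei. Of 21 pairs (Tal2 left out for its few UMIs), 6 were seen together more often in all 4 libraries. After thinning to 2000 UMIs 2 were, of which 1, Sox14 with Zfpm2, was among the 6 and the other, Gata2 with Tal1, was not. The 21 pairs were also set, unthinned, against nuclei without the first gene of the same subtype and like depth. Of the 6, Gata3 with Lhx5, Tal1 with Zfpm2 and Lhx1 with Lhx5 were then higher in all 4 libraries. Gata3 with Lhx1, Tal1 with Lhx5 and Sox14 with Zfpm2 were higher in 3. Outside the 6, Gata2 with Zfpm2, Gata3 with Sox14 and Gata3 with Zfpm2 were also higher in all 4. The share over other gene pairs was not counted, so the 6 are a description. Unthinned, Tal1 was seen in 55.3% of nuclei with Gata2 against 37.0% of those without at P8, with intervals apart, and in 31.1% against 41.0% at P21. Among nuclei with a UMI of Lhx1, 30.2%, 36.2%, 34.8% and 34.8% held Lhx5 at E19, P4, P8 and P21, against 25.9%, 27.2%, 31.3% and 30.8% of those without; the intervals overlapped in each library. For Gata3 and Tal1, partners in a complex, the shares were 28.9% against 27.1%, 37.0% against 26.9%, 40.6% against 34.4% and 39.6% against 41.6%, with intervals apart at P4 only. Gata3 and Zfpm2 were the only pair seen together less often in all 4 libraries, 89.3% against 92.0% on average. Against nuclei of the same subtype and like depth that lacked Gata3 (87.6% with Zfpm2), the share was higher in all 4; after thinning it was higher in 1 of 4. For Sox14 and Lhx1 the shares were 19.8% against 21.6% at E19, 20.7% against 16.1% at P4, 25.1% against 14.8% at P8 and 32.2% against 21.4% at P21, with intervals apart at P8 and P21. Nuclei of the same subtype and like depth without Sox14 held Lhx1 in 17.2% at P8 and 28.1% at P21. After thinning no library had the intervals of this pair apart.

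**Figure D4:**
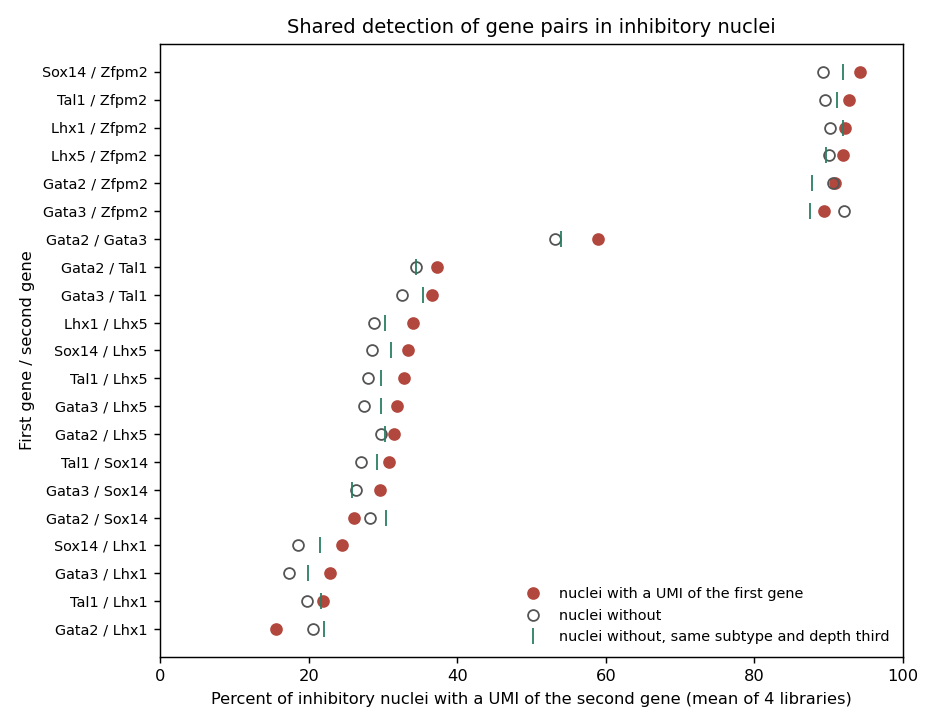
Percent of inhibitory nuclei with a UMI of the second gene (x axis), for 21 pairs (y axis), among nuclei with (filled) and without (open) a UMI of the first, and among nuclei without it of the same subtype and like depth (tick); points are means of 4 libraries. Filled points run from 15.5% for Gata2 / Lhx1 to 94.2% for Sox14 / Zfpm2, and for Gata3 / Zfpm2 the tick lies on the other side of the filled point from the open one.

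Outside the neurons, Tal1 stood out in vessels and microglia, where blood-lineage factors are known. Microglia, the resident macrophages of the brain, held 88.5 CPM of Tal1 at E19 and 110, 105 and 99.0 at P4, P8 and P21, on 5 to 11 UMIs in 13 to 33 nuclei. Endothelial nuclei held 81.1, 74.2, 67.0 and 81.3 CPM on 6 to 17 UMIs. These levels were above the 37.3 to 54.7 CPM of inhibitory neurons in each library, but the intervals were apart only for microglia at P21. Summed over libraries, microglia stood at 101 CPM (69.2 to 143), endothelial nuclei at 74.0 (54.0 to 99.0) and inhibitory neurons at 46.1 (43.9 to 48.4). Gata2 was likewise highest in endothelial nuclei, at 36.1, 34.9, 36.1 and 27.1 CPM on 2 to 8 UMIs. Red-cell RNA was present in the endothelial class, 349 to 1077 CPM at E19, P4 and P8 and 27684 at P21, most of it in 1 nucleus; without nuclei holding 10 or more red-cell UMIs, the mean over libraries was 69.9 CPM for Tal1 and 38.9 for Gata2, against 75.9 and 33.5 with them. All 5 endothelial and all 4 microglial markers were highest in their own class. Summed over libraries, Gata3, Sox14, Lhx1 and Lhx5 reached at most 12.7 CPM outside the neurons, Gata3 in fibrous astrocytes.

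Zfpm2 was widespread in non-neuronal classes. Astrocytes held 902, 804, 964 and 661 CPM at E19, P4, P8 and P21, and vascular leptomeningeal cells 1000, 654, 511 and 662, in each library below inhibitory and above excitatory neurons. In the oligodendrocyte lineage the precursors read 555.2 CPM (513 to 600, all libraries summed), committed cells 168 (140 to 200) and myelinating cells 191 (170 to 214). The class as a whole read 631 CPM at E19 and 227 at P21. With all libraries summed, dividing nuclei read 718 CPM (653 to 787), vascular leptomeningeal cells 661 (627 to 696) and epithelial nuclei 639 (581 to 702). In endothelial nuclei Zfpm2 went from 36.1 to 258 CPM, on 4 and 19 UMIs. Microglia lay at 124 to 216 CPM, close to excitatory neurons. The microglial class also held RNA of neuronal genes, 53.8 CPM of Gad1, 82.3 of Gad2 and 91.7 of Slc17a6. How much of its Zfpm2 is background from neurons was not tested.

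**Figure D5:**
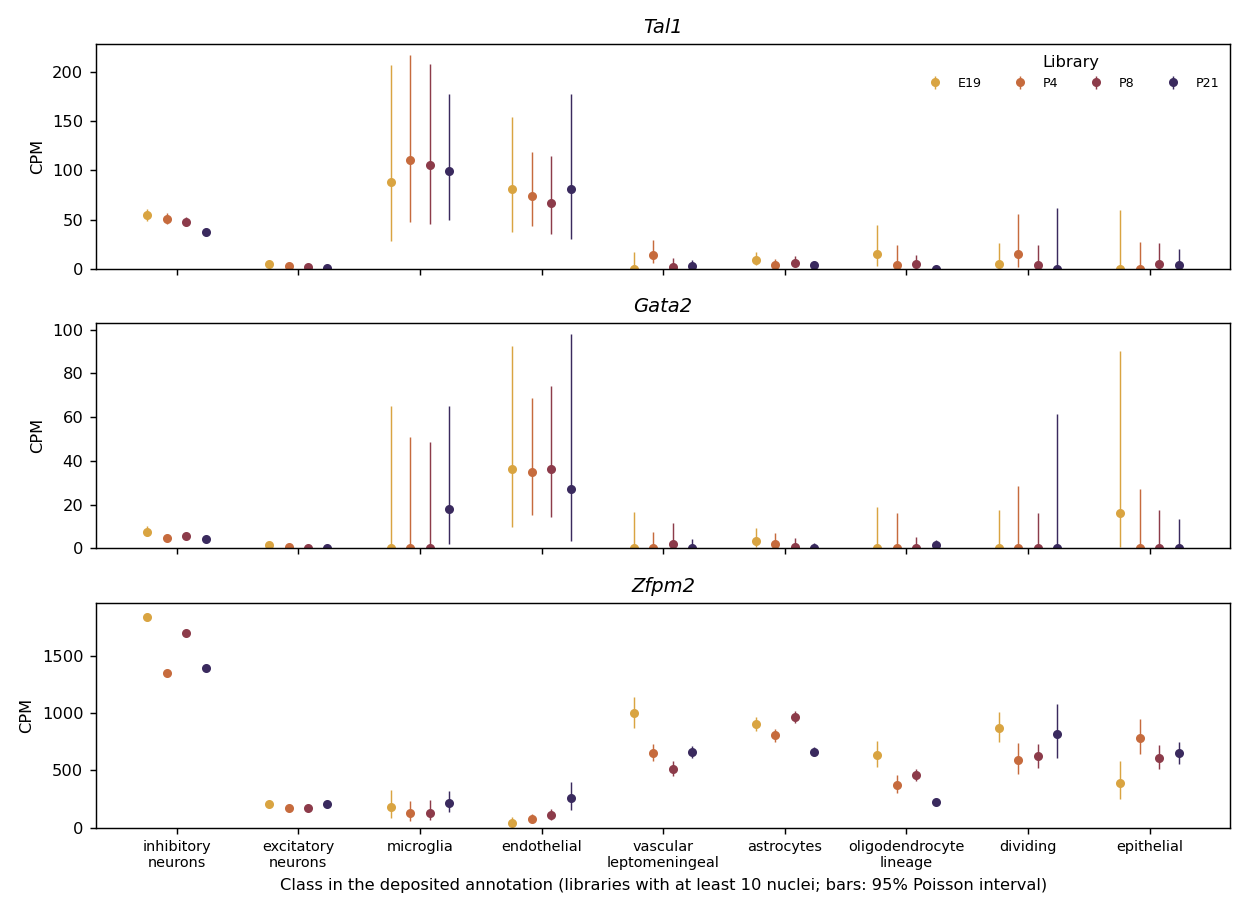
Level in CPM (y axis, linear, from 0) of Tal1, Gata2 and Zfpm2 in the 9 annotated classes (x axis), 1 point per library with at least 10 nuclei and its 95% Poisson interval. Tal1 is highest in microglia and endothelial nuclei, Gata2 in endothelial nuclei, and Zfpm2 in inhibitory neurons. Summed over libraries, Zfpm2 in dividing nuclei (718 CPM) and epithelial nuclei (639) lay near that in vascular leptomeningeal cells (661).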

How the data were processed

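Per the labels, nuclei of pooled superior colliculus were run on 10x Genomics 3′ v3 chemistry, and the submitters' processing notes name Cell Ranger 3.0.2 and mm10. The deposited matrix held raw UMI counts per gene and nucleus, and the deposited table of nuclei gave age, class, subtype and the percent of mitochondrial UMIs; its UMI totals equalled the matrix sums in all 9724 nuclei. What annotation release, strand setting, intronic reads, nuclei filters and doublet handling were used is not given in the sources used here, and no doublet caller was run. Of the table of nuclei, 9 columns were not used.

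Counts were summed per class or subtype and library and divided by the group's total UMIs (CPM). Subtypes needed 10 nuclei in a library. Intervals are exact 95% Poisson, binomial (ratios) or Clopper-Pearson (shares) and cover counting error only. Differences used log2(CPM + 5), and a call across genes needed 10 CPM and a 2-fold difference. Positions came from GENCODE M21 (GRCm38).

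The members, the gene lists and the alternatives were chosen with earlier results of these data known. Some genes of the lists are not reported here. All members were named, as were partners, sided genes of the lists, and the 3 genes most like each member reaching 10 CPM in a subtype. Chosen after values were seen were the nuclei matched by subtype and depth, leaving out Tal2 or Zfpm2, the likeness over 12 inhibitory subtypes, the 2 UMIs of GABA genes, the red-cell limit, the non-coding neighbours, the motif cores, the spans without each library, the share of genes with a neighbour as look-alike and the subtypes singled out. The computation used Python 3.11.15, numpy 2.4.6, scipy 1.17.1 and pandas 2.3.3, was checked on simulated counts, and was repeated with other weights, scalings, pseudocounts, libraries and thinning.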

Additional observations from a re-analysis of the deposited data

Results flagged for a closer look

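Zfpm2 was higher at P21 than at E19 in IN6, 2.57-fold (95% counting interval 1.65 to 4.16), while it was lower in each of the other 11 inhibitory subtypes. It is given here because the subtypes moved opposite ways under the same comparison of ages; the difference between them was not tested. The IN6 level rested on 24 UMIs in 54 nuclei at E19 and 129 UMIs in 51 nuclei at P21. Its 79.6 and 205 CPM lay below the 177 and 216 CPM of microglia and the 210 and 209 CPM of excitatory neurons in the same libraries.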

How the results depend on the processing

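The 6 members on the inhibitory side stayed 6 in every alternative run. Their median log2 difference between the neuron classes, 2.73, was 3.62 with a pseudocount of 1 CPM and 1.51 with 20 CPM. The count of members lower by 2-fold at P21, 0 as reported, was 1 with nuclei weighted alike, 1 with subtypes weighted alike and 1 with a pseudocount of 1 CPM. With P4 as the early library the median change was −0.40 in place of −0.79, and that of Zfpm2 reversed to 0.05. Thinning to 2000 UMIs raised the number of members with a lower share at P21 from 0 to 6. After thinning 2 pairs were seen together more often in place of 6, and 1 pair was in both. Thinned shares at P21 minus E19, in percentage points, were −0.846 for Gata2, −9.35 for Gata3, −3.77 for Tal1, −2.99 for Sox14, −3.58 for Lhx1 and −3.32 for Lhx5, all reversed. The highest subtype was kept for 6 to 8 of 8 members when each library was left out. Of the other summary values 32 were unchanged in call or within the spread, and of values for single genes 105, with 27 that moved. The cause of these shifts was not tested, other than by the construction of each alternative. No paired analysis was possible because each age has 1 library and its number comes from accession order. The values of Tal2, on 35 UMIs, and Gata2, on 250, are limited by these low counts.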
